A study of Homo sapiens with 24 samples.

Results

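SMO and 8 other genes of the Hedgehog pathway were followed through RNA-seq libraries of cells in which the zinc finger transcription activator ZFX was lowered or added back. The 9 genes are SMO, PTCH1, GLI1, GLI2, GLI3, SUFU, HHIP, GAS1 and BOC, and they are 9 of 58721 gene IDs in the counts. They were selected on the measured counts of SMO, which was lower with an siRNA against ZFX and higher with wild-type ZFX, so the SMO values of those comparisons are given as a description without a test. The other 8 genes were added as pathway partners. Reads were counted per gene in 24 libraries, which form 8 groups of 3 replicates. The series calls the 3 libraries of a group biological replicates without naming separate cultures, so p-values measure the spread between these libraries, which may be technical.

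LN-229, an established glioblastoma line labelled as wild type, gave 5 groups. In 3 of them ZFX was targeted by siRNA (siZFX), or the zinc finger protein ZNF593 was (siZNF593), or both were together (the double knockdown, labelled siZFX siZNF593). The remaining groups, siControl and siControl_2, were given control siRNA. Their treatment labels are identical, and siControl_2 is tied to the double knockdown by the deposited file naming alone. The other 3 groups are 293T cells, a line from human embryonic kidney, with a knockout of both ZFX and its paralog ZNF711 (DKO cells). All DKO groups carry that knockout, including the controls. They received the empty vector pCMV6, wild-type ZFX with a FLAG tag (wtZFX), or a FLAG-tagged ZFX construct named ZFX12_13. The labels do not say what 12_13 stands for, how many DKO clones were used, or how long after transfection the cells were taken.

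In Hedgehog signalling a secreted ligand binds the receptor PTCH1 at the cell surface. Without ligand PTCH1 holds down SMO, a membrane protein of the G-protein-coupled receptor class. With ligand SMO gathers in the primary cilium, and the zinc finger factors GLI1, GLI2 and GLI3 are turned towards activation of their targets. SUFU binds the GLI proteins and restrains them. GAS1 and BOC are coreceptors that help the ligand reach PTCH1, and HHIP binds and sequesters ligand. PTCH1, HHIP and GLI1 are themselves textbook targets of the pathway, and GLI1 is its usual readout. Aberrant Hedgehog signalling is known from medulloblastoma and basal cell carcinoma and has been studied in glioma.

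Promoter windows from RefSeq (GRCh38.p14), 250 bases before to 50 bases after a transcript start, were found for 7 of the 9 genes, in 13 windows. GLI1 and GLI3 were not matched. The single SMO window is shown because SMO is the gene on which the set was selected, and the PTCH1 window is shown because it holds the letters of the GLI consensus. Capitals mark those letters (TGGGTGGTC as printed, the reverse complement of GACCACCCA), and both windows are printed 5′ to 3′ on the strand of the gene.
SMO promoter, chr7:129188383-129188682, plus strand: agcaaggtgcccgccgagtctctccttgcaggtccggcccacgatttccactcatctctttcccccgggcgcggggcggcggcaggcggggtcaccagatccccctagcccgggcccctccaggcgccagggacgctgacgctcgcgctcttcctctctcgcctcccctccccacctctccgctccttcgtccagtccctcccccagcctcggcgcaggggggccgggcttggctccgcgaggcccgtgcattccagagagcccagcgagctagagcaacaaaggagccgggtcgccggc
PTCH1 promoter, chr9:95509217-95509516, minus strand: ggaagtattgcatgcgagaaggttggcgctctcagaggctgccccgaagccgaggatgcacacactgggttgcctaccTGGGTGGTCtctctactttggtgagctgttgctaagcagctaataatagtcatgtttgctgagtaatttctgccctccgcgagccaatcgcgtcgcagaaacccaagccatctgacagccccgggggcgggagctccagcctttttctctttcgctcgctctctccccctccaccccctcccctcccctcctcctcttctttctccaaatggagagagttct

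The SMO window was 72% G and C, against a median of 58.7% over all windows, and ended 190 bases before the start of SMO in GENCODE 29. Over the windows of the 7 genes the share of G and C ran from 46.3% to 72.7%. The core of the ZFX motif, AGGCCT, which reads the same on either strand, was in 0 of the 13 windows. It was in 3826 of all 35116 windows, a share of 10.9%. The GLI letters GACCACCCA, searched on both strands, were in 1 of the 13 windows and in 83 of all windows, a share of 0.236%. That match lies before the transcript start of its window, at 95509430 to 95509438 on chromosome 9, and inside the span that GENCODE 29 gives for the PTCH1 gene. A match describes letters only, and the absence of letters from these windows says nothing about binding.

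Between 16223239 and 30159260 reads per library were counted on genes. After a filter on low counts 17684 genes were tested in LN-229 and 19376 in DKO cells, with all 9 Hedgehog genes among them in each line. ZFX stood at 50.5 ± 4.73 CPM (its counts scaled to the library's TMM-adjusted total, mean ± SD, n = 3) with siControl and at 16.01 ± 3.52 CPM with siZFX. It stood at 53.6 ± 4.14 CPM with siControl_2 and at 26.7 ± 2.33 CPM with the double knockdown. ZNF593 was read from the sum of the 2 stranded columns and scaled to their total without TMM factors. It stood at 29.4 ± 2.14 CPM with siControl and 2.03 ± 0.592 CPM with siZNF593, and at 30.1 ± 2.72 CPM with siControl_2 and 2.78 ± 0.405 CPM with the double knockdown. In DKO cells ZFX had 224 ± 10.2 CPM in the empty-vector group, 15534 ± 1235 CPM in the wtZFX group and 18895 ± 3282 CPM in the ZFX12_13 group. The values with wtZFX and ZFX12_13 include reads from the introduced constructs. ZNF711 stood at 306 ± 6.44, 263 ± 13.3 and 256 ± 8.90 CPM in the same order. Reads of both knocked-out genes were thus counted in the empty-vector group, which received no ZFX construct. All 10 glial markers examined were at a median of at least 1 CPM in LN-229, as were all 8 markers of 293T cells in DKO cells. At that threshold 7 of the 10 glial markers also passed in DKO cells, and 4 of the 8 markers of 293T cells in LN-229. Replicate 3 of the double knockdown and replicate 1 of ZFX12_13 stood apart from their groups, with chi-square values per degree of freedom of 41.8 and 48.2 (against 5.35 for the other pair) and of 9.23 and 10.6 (against 2.52). Changes of the 9 genes that were called in comparisons holding these libraries are also given without them.

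SMO was lowest in the ZFX knockdown and highest with the ZFX constructs. In LN-229 its level was 35.3, 38.1 and 36.2 CPM in the 3 siControl libraries and 4.83, 6.62 and 5.59 CPM in the 3 siZFX libraries. The groups lay far apart, with 15.5% of the control mean left (log2 change -2.69, SE 0.13). With siZNF593 SMO stood at 27.3, 28.0 and 27.9 CPM, below every siControl library (log2 change -0.40, SE 0.12). In DKO cells it was 55.1, 56.3 and 53.7 CPM with the empty vector, 80.9, 84.4 and 78.5 CPM with wtZFX, and 89.6, 96.2 and 103 CPM with ZFX12_13. All 3 DKO groups were apart from one another, at log2 differences from the empty vector of 0.56 (SE 0.06) for wtZFX and 0.81 (SE 0.06) for ZFX12_13, or 0.86 without replicate 1 of ZFX12_13. The difference between the constructs was 0.25 (SE 0.06).

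The double knockdown and siControl_2 are 6 libraries that the rule for choosing SMO did not name, so there SMO was tested. The choice was still made with earlier results of these data known. The test also takes its spread estimate from all 15 LN-229 libraries, those of siZFX and siControl included. Its level was 59.5, 52.9 and 56.6 CPM in siControl_2 and 14.9, 16.2 and 11.02 CPM in the double knockdown, and the lowest control library was above the highest knockdown library. SMO fell 4.01-fold (log2 change -2.00, SE 0.12, adjusted p = 2.1e-11 by edgeR's quasi-likelihood test). Without replicate 3 of the double knockdown the log2 change was -1.85 (SE 0.11). Set against siControl instead it was -1.38 (SE 0.12), because SMO was higher in siControl_2 (56.4 ± 3.30 CPM) than in siControl (36.5 ± 1.46 CPM) although both carry the same treatment label. The 2 control sets did not overlap in SMO, at a log2 difference of 0.63 (SE 0.11).

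SMO and ZFX were left at different shares of their controls. With siZFX 31.7% of ZFX and 15.5% of SMO were left, and with the double knockdown 49.8% of ZFX and 24.9% of SMO were left against siControl_2. Against siControl the double knockdown left 52.7% of ZFX and 38.4% of SMO. The log2 change of SMO in the double knockdown against siControl_2 was smaller in size than with siZFX by 0.68 (SE 0.18), and by 1.31 where siControl served both knockdowns. In order of mean level the groups ran from siZFX through the double knockdown, siZNF593, siControl, pCMV6, siControl_2 and wtZFX to ZFX12_13. Among the neighbours in that order only pCMV6 and siControl_2 overlapped, and levels across the cell lines are a description. In these bulk samples fewer cells of a kind and less RNA per cell cannot be told apart. The summed level of the glial markers ran from 4454 to 4515 CPM in siControl and 4768 to 5011 CPM in siControl_2, but from 3212 to 3318 CPM in siZFX, 3053 to 3089 CPM in siZNF593 and 3176 to 3239 CPM in the double knockdown. Its part in the LN-229 results was not tested.

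**Figure D1:**
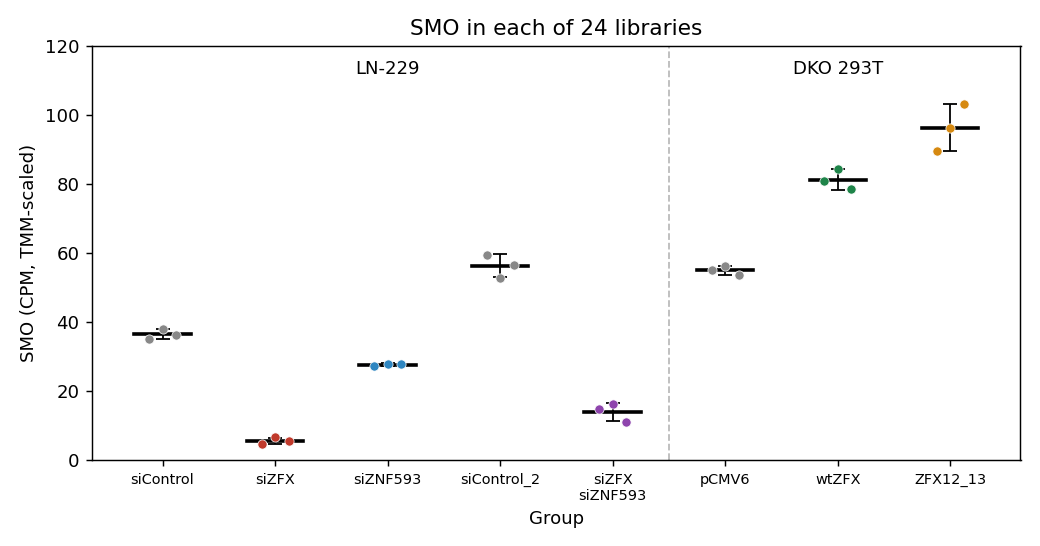
SMO level in each of the 24 libraries (points, CPM on TMM-scaled totals) by group, with the mean (bar) and SD (whiskers) of 3 replicates. The siZFX libraries lie between 4.83 and 6.62 CPM, and the ZFX12_13 libraries between 89.6 and 103 CPM.

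SMO (ENSG00000128602.9) lies on the plus strand of chromosome 7 from 129188872 to 129213545. An antisense gene, AC011005.4, shares 129 exon bases with it and reached at most 1.05 CPM in any library. Reads were not stranded, so reads of overlapping genes on opposite strands cannot be told apart. Over 125 alternative values of SMO across all comparisons the sign of the change stayed as given. Genes whose pattern was most like that of SMO were sought over the 24 libraries, on log2 CPM centred within each cell line. Of 11611 protein-coding genes the highest Pearson correlations were those of VDAC1, a channel of the outer mitochondrial membrane (0.97), ALDH18A1, an enzyme of proline synthesis (0.97), PXDN, a peroxidase of the extracellular matrix (0.96), NPDC1 (0.96) and DUSP15 (0.96). These points share libraries and groups, and the correlations are a description. NPDC1, for example, stood at 18.3 ± 2.71 CPM in siControl and 2.55 ± 0.162 CPM in siZFX, and at 42.0 ± 2.79 CPM with the empty vector and 72.2 ± 5.33 CPM with wtZFX. Among the other Hedgehog genes the correlation with SMO was 0.82 for PTCH1 (rank 460), 0.80 for BOC (rank 589), 0.67 for GAS1, 0.41 for HHIP, 0.41 for GLI2, 0.31 for SUFU, -0.21 for GLI1 and -0.43 for GLI3. These values pool both lines. In DKO cells mean SMO was 55.0, 81.3 and 96.3 CPM with pCMV6, wtZFX and ZFX12_13. PTCH1 did not rise with SMO there, at 49.9, 46.3 and 42.5 CPM, with its wtZFX libraries overlapping both other groups. Its ZFX12_13 libraries were 34.5 CPM in replicate 1, which stood apart, and 46.6 and 46.4 CPM. Without that replicate the log2 difference of PTCH1 between the constructs was 0.0090. BOC, at 14.5, 22.5 and 17.4 CPM, was higher with both constructs.

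Levels of different genes were compared per kilobase of merged exons. In siControl GAS1 was highest at 19.4 ± 1.53 CPM per kb, followed by GLI3 (9.30 ± 0.430), GLI2 (8.53 ± 0.245), SMO (8.47 ± 0.338) and PTCH1 (6.35 ± 0.0572). The libraries of SMO overlapped those of GLI2 and GLI3 on this scale. SUFU stood at 2.98 ± 0.357, GLI1 at 1.44 ± 0.0798, HHIP at 1.23 ± 0.0901 and BOC at 0.345 ± 0.0353 CPM per kb. With siZFX SMO moved from rank 4 to rank 7 of the 9 genes, at 1.32 ± 0.209 CPM per kb. In DKO cells with the empty vector GAS1 (24.2 ± 0.949 CPM per kb) and SMO (12.8 ± 0.302) were again high, SUFU was the third at 5.77 ± 0.0911, and GLI2 was low at 1.28 ± 0.0672.

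**Figure D2:**
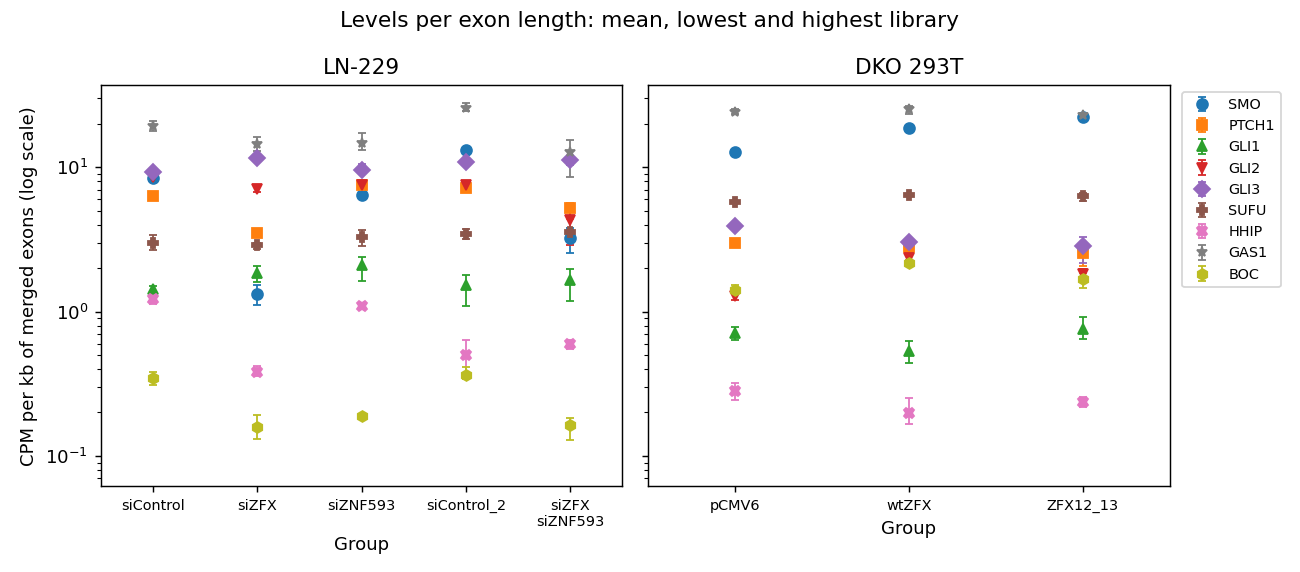
Mean level of the 9 genes per kilobase of merged exons (CPM per kb, log scale) by group in LN-229 and DKO cells, with whiskers to the lowest and highest of 3 libraries. GAS1 has the highest mean in all 8 groups, and SMO drops from 8.47 in siControl to 1.32 CPM per kb in siZFX.

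Of the 8 genes beside SMO, 4 were called with siZFX at a Benjamini-Hochberg adjusted p under 0.05 in edgeR's quasi-likelihood test, where 30.9% of all tested genes were called (13.8% higher and 17.1% lower). PTCH1, HHIP and BOC fell and GLI3 rose. With siZNF593 2 of 8 were called against 26.8% of all genes (12.2% higher and 14.6% lower): BOC fell and PTCH1 rose. In the double knockdown against siControl_2, 5 of 9 were called against 38.2% of all genes (17.6% higher and 20.6% lower), and SMO, PTCH1, GLI2, GAS1 and BOC all fell. Between the control sets 1 of 8 was called, HHIP, lower in siControl_2, against 10.3% of all genes (5.43% higher and 4.88% lower). With wtZFX 4 of 8 were called against 42.3% of all genes (23.2% higher and 19.2% lower), GLI2 and BOC higher and GLI3 and HHIP lower. With ZFX12_13 4 of 8 were called against 36.6% of all genes (20.9% higher and 15.7% lower), GLI2 and BOC higher and GLI3 and PTCH1 lower. These counts are near the shares of all genes in several comparisons, and nothing is read from them about the genes as a set. The median log2 change over the 8 genes beside SMO was -0.35 with siZFX, where all tested genes had a median of 0.02, and -0.03 with wtZFX, where all genes had -0.02. Comparisons with siControl share its libraries, and those with pCMV6 share theirs.

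**Figure D3:**
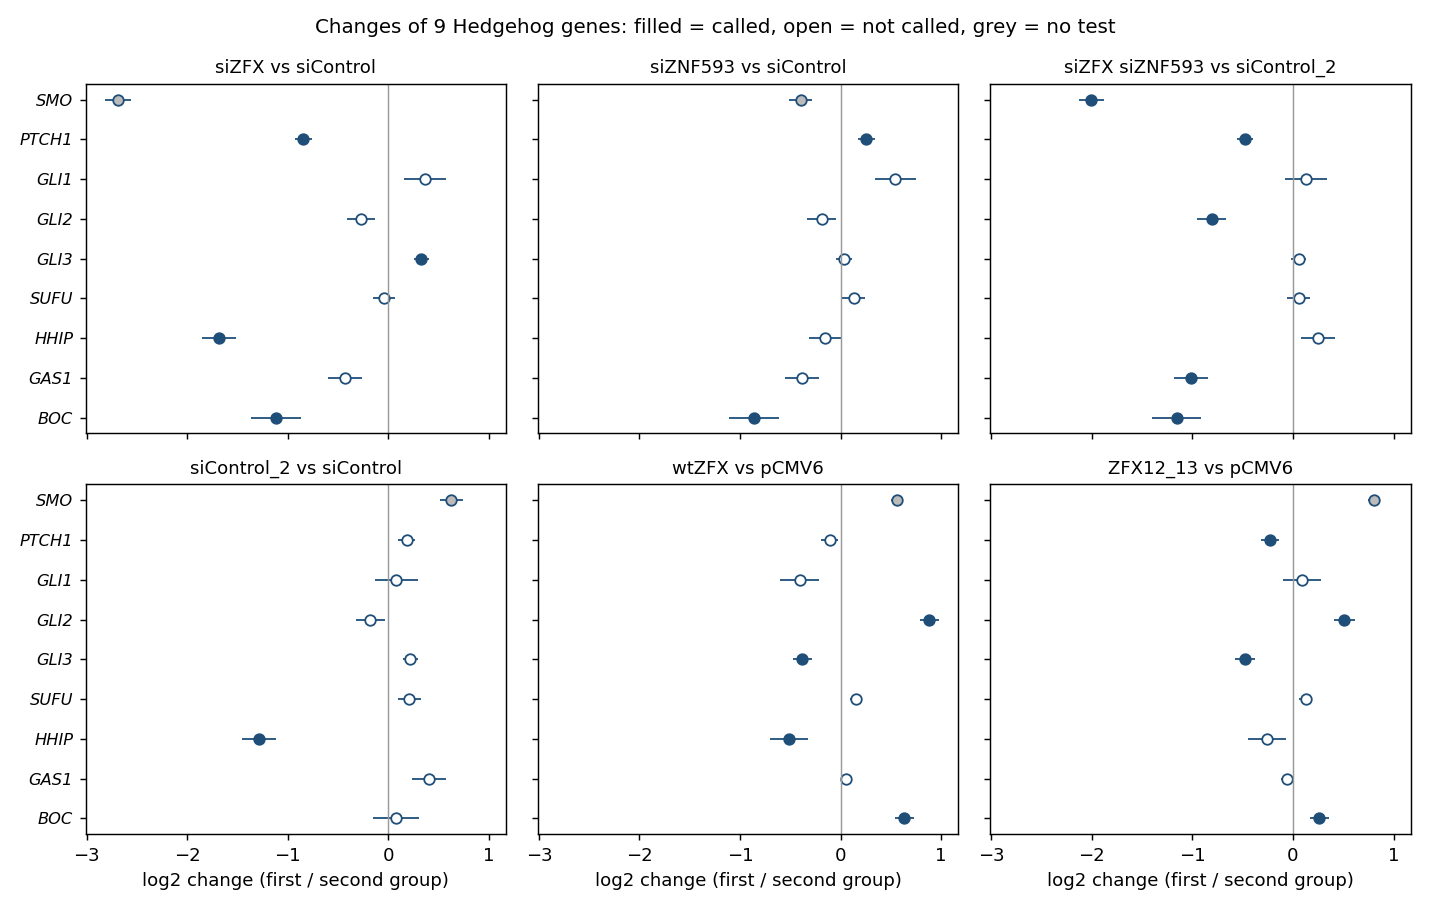
Log2 change (points) with its standard error (whiskers) of the 9 genes in 6 comparisons, the first group over the second. Filled points were called at an adjusted p under 0.05, open points were not, and grey points (SMO) carry no test. SMO is at -2.69 with siZFX and -2.00 in the double knockdown, and HHIP is at -1.29 between the control sets.

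PTCH1 (ENSG00000185920.15, chromosome 9, 95442980 to 95517057, minus strand) is the receptor that holds SMO in check. It stood at 106, 106 and 104 CPM in siControl and at 56.3, 59.0 and 60.4 CPM in siZFX, with no overlap, and fell 1.80-fold (log2 change -0.85, SE 0.08, adjusted p = 5.42e-08). With siZNF593 it was 124, 122 and 131 CPM, above every siControl library, and rose by 0.26 on the log2 scale (SE 0.08, adjusted p = 0.0251). That call was lost without any 1 of the 3 siControl libraries or without siZNF593 replicate 1 or 3 (log2 change 0.20 to 0.25, adjusted p = 0.0671 to 0.134), and with no filter (adjusted p = 0.0515). The single knockdowns differed from each other by -1.10 (SE 0.09, adjusted p = 3.99e-10), where 3 of 8 genes were called against 40.5% of all genes (19.8% higher and 20.7% lower). HHIP also fell there and GLI3 rose. In the double knockdown PTCH1 stood at 94.1, 91.2 and 72.7 CPM, below all siControl_2 libraries at 111, 120 and 128 CPM (log2 change -0.48, SE 0.08, adjusted p = 8.8e-05). Without replicate 3 of the double knockdown the change was -0.36 (SE 0.07, adjusted p = 2.51e-05), and against siControl it was -0.29 (SE 0.08, adjusted p = 0.00711). In DKO cells it was 48.9, 49.4 and 51.3 CPM with the empty vector, 46.3, 49.9 and 42.6 CPM with wtZFX, and 34.5, 46.6 and 46.4 CPM with ZFX12_13. The wtZFX libraries overlapped the controls (adjusted p = 0.324). PTCH1 passed the test with ZFX12_13 (log2 change -0.23, SE 0.09, adjusted p = 0.0434), but not without replicate 1, the library that stood apart (log2 change -0.10, adjusted p = 0.224), nor without any 1 of the empty-vector libraries (-0.21 to -0.25, adjusted p = 0.0773 to 0.144). It also missed the threshold with RLE factors, DESeq2, the filter at 1 CPM, summed stranded columns or only the compared groups (adjusted p = 0.0503 to 0.0586). An antisense gene, AL161729.1, shares 711 exon bases with PTCH1 and stayed at or below 0.431 CPM.

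HHIP (ENSG00000164161.9, chromosome 4, 144646021 to 144745271, plus strand), the decoy that binds Hedgehog ligand, differed between the control sets as well as between treatments. It was 15.3, 13.6 and 15.7 CPM in siControl but 7.65, 6.37 and 4.14 CPM in siControl_2, with no overlap (log2 difference -1.29, SE 0.17, adjusted p = 1.05e-05). With siZFX it was 5.09, 4.35 and 4.42 CPM and fell 3.21-fold against siControl (log2 change -1.68, SE 0.17, adjusted p = 7.11e-08). The siZFX libraries lie within the range of siControl_2. With siZNF593 HHIP was 12.7, 13.3 and 13.9 CPM, which overlapped siControl (adjusted p = 0.516). In the double knockdown it was 7.34, 6.62 and 7.69 CPM, which overlapped siControl_2 (log2 change 0.25, SE 0.17, adjusted p = 0.276) but lay below siControl (log2 change -1.04, SE 0.16, adjusted p = 2.15e-05). The direction of the double knockdown on HHIP thus turned with the choice of control set. In DKO cells HHIP was low, from 2.96 to 3.85 CPM in the empty-vector group and from 2.01 to 3.04 CPM in the wtZFX group, and these overlapped. It passed the test there at an adjusted p of 0.0304 (log2 change -0.52, SE 0.19), which was lost with DESeq2 (adjusted p = 0.0706), with summed stranded columns (adjusted p = 0.0858) and without replicate 1 or 3 of either group (log2 change -0.41 to -0.52, adjusted p = 0.0626 to 0.145). HHIP-AS1 on the opposite strand shares 178 exon bases with HHIP, at 1.02 to 3.78 CPM.

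GAS1 (ENSG00000180447.6, chromosome 9, 86944363 to 86947189, minus strand), a membrane-anchored coreceptor, was 55.1, 58.9 and 50.3 CPM in siControl. With siZFX it was 39.8, 36.5 and 45.7 CPM and with siZNF593 49.0, 37.3 and 39.3 CPM. Both knockdowns lay below every siControl library, but neither passed the test (adjusted p = 0.0703 and 0.113). Each did with 1 library fewer, siZFX without its replicate 3 (log2 change -0.52, adjusted p = 0.0466) and siZNF593 without its replicate 1 (log2 change -0.54, adjusted p = 0.0392). GAS1 also passed in both with DESeq2 (adjusted p = 0.0234 and 0.0463), with no filter (0.00068 and 0.00168) and with only the compared groups (2.25e-07 and 0.000638). With siZFX it passed as well with the filter at 1 CPM (adjusted p = 0.0436) and with summed stranded columns (0.0449). GAS1 was higher in siControl_2, at 78.6, 70.5 and 68.8 CPM, and 43.4, 40.1 and 24.3 CPM in the double knockdown, a fall of 2.02-fold (log2 change -1.02, SE 0.17, adjusted p = 0.000249). Without replicate 3 of the double knockdown that change was -0.79 (SE 0.10, adjusted p = 3.15e-09), and against siControl it was -0.61 (SE 0.17, adjusted p = 0.01). In DKO cells GAS1 stayed between 64.2 and 75.7 CPM in all 9 libraries, and its groups overlapped. The log2 differences from the empty vector were 0.06 (SE 0.06) for wtZFX and -0.06 (SE 0.06) for ZFX12_13.

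BOC (ENSG00000144857.14, chromosome 3, 113211003 to 113287459, plus strand), the other coreceptor, was low in LN-229. Its siControl libraries held 3.58, 3.92 and 3.19 CPM, from 74 to 114 counts each. With siZFX it was 1.59, 1.99 and 1.34 CPM (log2 change -1.12, SE 0.25, adjusted p = 0.00108), and with siZNF593 1.90, 2.02 and 1.96 CPM (log2 change -0.86, SE 0.25, adjusted p = 0.0109). Both groups lay below siControl, and they overlapped each other. BOC in the double knockdown, at 1.83, 1.89 and 1.33 CPM, lay below siControl_2 at 4.24, 3.51 and 3.53 CPM (log2 change -1.16, SE 0.24, adjusted p = 0.000634, or -1.005 without replicate 3 of the double knockdown, adjusted p = 0.00447). In DKO cells BOC was higher, at 13.8, 14.1 and 15.8 CPM with the empty vector, and rose with wtZFX to 21.3, 22.8 and 23.4 CPM, above all of these (log2 change 0.63, SE 0.09, adjusted p = 4.47e-06). With ZFX12_13 it was 14.9, 18.3 and 19.1 CPM, which overlapped the empty vector although it passed the test (log2 change 0.26, SE 0.10, adjusted p = 0.0356). Without replicate 1 or 2 of the empty vector, or 2 or 3 of ZFX12_13, it did not pass (log2 change 0.19 to 0.24, adjusted p = 0.114 to 0.163), nor with DESeq2, no filter or only the compared groups (adjusted p = 0.0509 to 0.0616). Without replicate 1 of ZFX12_13, the library that stood apart, the change was 0.36 (SE 0.09, adjusted p = 0.00135), and the other libraries lay above every empty-vector library. ZFX12_13 was lower than wtZFX in BOC by 0.37 on the log2 scale (SE 0.09, adjusted p = 0.00482, or by 0.27 without replicate 1 of ZFX12_13, adjusted p = 0.0203), where 2 of 8 genes were called against 20.4% of all genes (9.73% higher and 10.6% lower). CFAP44 on the opposite strand shares 513 exon bases with BOC and ran from 4.09 to 37.7 CPM, and with both stranded columns summed the change with siZNF593 was -0.55 (SE 0.22, adjusted p = 0.071).

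**Figure D4:**
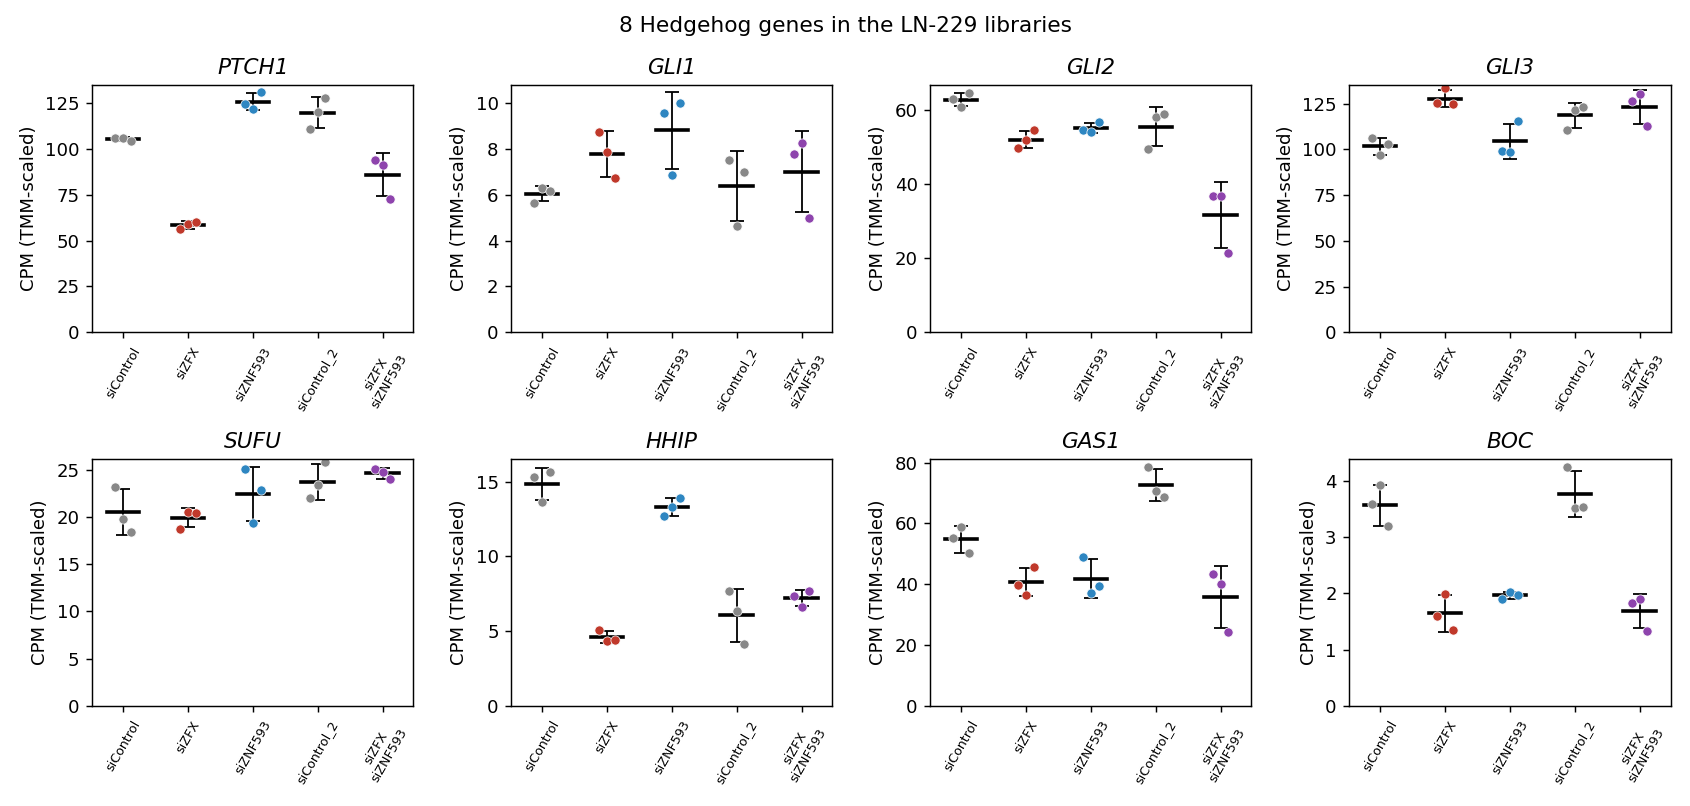
Level (CPM on TMM-scaled totals) of the 8 genes beside SMO in each LN-229 library (points), with group means (bars) and SD (whiskers), n = 3. HHIP is lower in siControl_2 than in siControl (6.06 against 14.9 CPM), and PTCH1 is lower with siZFX (58.5 CPM) than with siZNF593 (126 CPM).

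GLI2 (ENSG00000074047.21, chromosome 2, 120735623 to 120992653, plus strand), the main activating GLI factor, was 62.8, 60.8 and 64.4 CPM in siControl. With siZFX it was 49.6, 51.7 and 54.4 CPM and with siZNF593 54.6, 53.9 and 56.5 CPM, all below siControl, but neither difference passed the test (log2 change -0.27, adjusted p = 0.172, and -0.19, adjusted p = 0.372). With only the compared groups both passed (adjusted p = 9.5e-05 and 0.0465), and siZFX also passed with no filter (adjusted p = 0.0252). In the double knockdown GLI2 was 36.8, 36.8 and 21.2 CPM, below siControl_2 at 49.3, 58.0 and 58.8 CPM, and fell by 0.81 on the log2 scale (SE 0.15, adjusted p = 0.000274). Without replicate 3, the library at 21.2 CPM, the change was -0.58 (SE 0.08, adjusted p = 1.09e-07). In DKO cells GLI2 was 8.87, 9.52 and 9.84 CPM with the empty vector, 18.5, 16.7 and 16.8 CPM with wtZFX and 12.04, 13.7 and 14.6 CPM with ZFX12_13. The 3 groups did not overlap. With wtZFX GLI2 rose 1.84-fold (log2 change 0.88, SE 0.10, adjusted p = 5.65e-08), and with ZFX12_13 it rose 1.43-fold (log2 change 0.51, SE 0.10, adjusted p = 0.000296, or 0.58 without its replicate 1). The constructs differed, ZFX12_13 being lower by 0.37 on the log2 scale (SE 0.09, adjusted p = 0.0056), or by 0.30 without its replicate 1 (adjusted p = 0.0235). For SMO the order of the constructs was the opposite.

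GLI3 (ENSG00000106571.13, chromosome 7, 41960950 to 42237870, minus strand), which is processed to the main repressor form, was higher with siZFX and lower with both constructs. It was 106, 96.7 and 103 CPM in siControl and 125, 133 and 125 CPM with siZFX, with no overlap (log2 change 0.33, SE 0.08, adjusted p = 0.00218). With siZNF593 it was 99.2, 98.8 and 115 CPM, which overlapped siControl. In the double knockdown it was 127, 130 and 113 CPM, which overlapped siControl_2 at 111, 122 and 123 CPM (adjusted p = 0.606). Against siControl instead it passed the test (log2 change 0.28, SE 0.08, adjusted p = 0.0064). The control sets did not overlap in GLI3, which was higher in siControl_2 by 0.22 on the log2 scale (SE 0.08, adjusted p = 0.0773). That difference passed with only the compared groups (adjusted p = 0.00761). In DKO cells GLI3 was 44.3, 43.7 and 41.2 CPM with the empty vector and fell with wtZFX to 33.6, 34.2 and 31.5 CPM (log2 change -0.38, SE 0.10, adjusted p = 0.00329). With ZFX12_13 it was 23.8, 35.7 and 33.4 CPM (log2 change -0.48, SE 0.10, adjusted p = 0.000758), again below every empty-vector library. Without replicate 1, at 23.8 CPM, the change was -0.32 (SE 0.07, adjusted p = 0.000119).

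GLI1 (ENSG00000111087.9, chromosome 12, 57460135 to 57472262, plus strand), the usual readout of the pathway, was low and passed edgeR's test in 0 of 9 comparisons, where 3 had an unadjusted p under 0.05 and DESeq2 called 1, siZNF593. In LN-229 it was 5.66, 6.29 and 6.17 CPM in siControl, 8.72, 7.87 and 6.72 CPM with siZFX and 9.57, 6.88 and 9.98 CPM with siZNF593. Both knockdowns lay above siControl, at log2 changes of 0.36 (SE 0.21, adjusted p = 0.201) and 0.54 (SE 0.21, adjusted p = 0.0551). Without siZNF593 replicate 2 the second was 0.67 and passed (adjusted p = 0.0286). It also passed with DESeq2, no filter, the filter at 1 CPM or only the compared groups (adjusted p = 0.00855 to 0.0447), and the first passed with only the compared groups (adjusted p = 0.0482). GLI1 in the double knockdown, at 7.78, 8.25 and 4.98 CPM, overlapped siControl_2 at 7.52, 4.62 and 7.01 CPM. In DKO cells it ran from 2.67 to 3.31 CPM in the empty-vector group and, in the wtZFX group, from 1.87 to 2.61 CPM, below it (log2 change -0.41, SE 0.19, adjusted p = 0.0954). The ZFX12_13 libraries, at 2.70 to 3.84 CPM, overlapped the empty vector. The DKO libraries held 38 to 73 counts of GLI1 each, so small changes were not detectable at this depth.

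SUFU (ENSG00000107882.11, chromosome 10, 102503987 to 102633535, plus strand), the inhibitor that binds GLI proteins, passed edgeR's test in 0 of 9 comparisons, with 1 unadjusted p under 0.05 and 0 calls by DESeq2. It was 23.2, 19.8 and 18.5 CPM in siControl and 18.7, 20.6 and 20.4 CPM with siZFX, which overlapped (log2 change -0.04, SE 0.11, adjusted p = 0.82). In the double knockdown it was 24.6 ± 0.564 CPM, inside the range of siControl_2 at 21.9, 23.3 and 25.8 CPM (log2 change 0.06, SE 0.11). With wtZFX it was 43.5, 44.9 and 43.6 CPM, above the empty vector at 39.6, 40.2 and 39.0 CPM (log2 change 0.15, SE 0.06, adjusted p = 0.0542). That difference passed with RLE factors, the filter at 1 CPM, summed stranded columns or only the compared groups (adjusted p = 0.0143 to 0.0468). With ZFX12_13 it overlapped the empty vector, and without replicate 1, the library that stood apart, it passed the test (log2 change 0.18, adjusted p = 0.0171).

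The change in the double knockdown against siControl_2 was tested against the change with siZFX against siControl. Of the 8 genes beside SMO, 2 differed, where 17.7% of all genes did (8.76% higher and 8.97% lower). HHIP differed by 1.93 on the log2 scale (SE 0.24, adjusted p = 4.12e-06) and PTCH1 by 0.37 (SE 0.12, adjusted p = 0.0318), the value of each being higher in the double knockdown. With siControl as the control of both knockdowns the difference of HHIP was 0.64. Without replicate 3 of the double knockdown the differences were 1.89 (adjusted p = 7.33e-09) for HHIP and 0.49 (adjusted p = 5.18e-05) for PTCH1. PTCH1 lost its call without replicate 1 of siControl, siZFX or siControl_2, or replicate 2 of the double knockdown (0.33 to 0.38, adjusted p = 0.0504 to 0.0735). GLI2 and GAS1 gained a call without replicate 3 of the double knockdown, at -0.31 (adjusted p = 0.0387) and -0.36 (adjusted p = 0.0374), and without its replicate 1, at -0.64 (adjusted p = 0.0266) and -0.72 (adjusted p = 0.0318). GLI2 also gained a call without its replicate 2 (-0.64, adjusted p = 0.0259). Both gained one with DESeq2 (adjusted p = 0.0434 and 0.046) and with no filter (0.00154 and 0.00261), and with siControl as the control GLI2 (0.000929) and SUFU (0.0372) did.

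Ligands and their partners were read from a list of 8 genes. In LN-229 SHH had at most 2 counts in any library and IHH at most 9. DHH ran from 0.347 to 1.91 CPM and passed the test only between siZFX and siZNF593, among the LN-229 comparisons (0.647 ± 0.341 against 1.64 ± 0.147 CPM, adjusted p = 0.0146). In DKO cells SHH, named here after its values were seen, was 0.0453, 0.328 and 0.151 CPM with the empty vector, 11 counts in all. It was 2.36, 0.897 and 1.99 CPM with wtZFX and 1.65, 1.35 and 2.10 CPM with ZFX12_13. The log2 changes of SHH were 3.29 (SE 0.47) with wtZFX and 3.24 (SE 0.49) with ZFX12_13. IHH went from 0.226, 0.0938 and 0.454 CPM to 1.67, 2.24 and 1.24 CPM with wtZFX and to 1.48, 1.93 and 1.91 CPM with ZFX12_13. Each empty-vector library held only 1 to 7 counts of SHH and 2 to 9 of IHH. Both genes passed the filter on low counts through the construct groups, so their changes are a description without a test. For SHH and IHH every construct library was above every empty-vector library, at levels of at most 2.36 CPM. DHH, at 0.407, 0.469 and 0.454 CPM with the empty vector, overlapped both wtZFX (0.785, 0.349 and 0.373 CPM, adjusted p = 0.796) and ZFX12_13 (0.413, 0.879 and 0.555 CPM, adjusted p = 0.442). HHAT, the acyltransferase of Hedgehog ligands, stood at 6.93 ± 0.694 CPM in the control and rose to 10.5 ± 0.0562 CPM with wtZFX and 13.3 ± 0.291 CPM with ZFX12_13. SCUBE1 and SCUBE3, which help release ligand, rose 2.48-fold and 1.66-fold with wtZFX.

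Other pathway genes were counted in 5 lists that hold 131 genes beside the 9, of which 121 were tested in LN-229 and 128 in DKO cells. With siZFX 18 rose and 38 fell, which is 46.3% called where 30.9% of all genes were. With siZNF593 19 rose and 29 fell (39.7% against 26.8%), and in the double knockdown 21 rose and 49 fell (57.9% against 38.2%). With wtZFX 46 rose and 39 fell (66.4% against 42.3%), and with ZFX12_13 34 rose and 33 fell (52.3% against 36.6%). The 128 genes tested in DKO cells, here and below, include SHH and IHH, which passed the filter through the construct groups. Both are counted among the rises with wtZFX and with ZFX12_13, although their changes are a description without a test. The median log2 change over the tested genes of the 5 lists was -0.14 with siZFX, -0.01 with siZNF593, -0.21 in the double knockdown and 0.04 with wtZFX. Medians of all genes lay between -0.02 and 0.02. Between the control sets 10 were higher and 11 lower in siControl_2 (17.4% against 10.3%).

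Among receptors and coreceptors beside the 9 genes, 4 of 6 fell with siZFX, where 17.1% of all genes fell. Among them were CDON (7.75 ± 0.547 to 5.25 ± 0.602 CPM), a coreceptor akin to BOC, and the glypican GPC6 (89.8 ± 2.80 to 67.4 ± 2.03 CPM). With siZNF593 1 of 6 rose and 2 fell (50% called, against 26.8% of all genes). GPC6 was among these falls, at 71.8 ± 6.44 CPM (log2 change -0.32, SE 0.08, beside -0.42, SE 0.08, with siZFX). In the double knockdown 2 of 6 fell (33.3% called, against 38.2% of all genes). Between the control sets alone 2 of 6 were higher in siControl_2 (33.3% called, against 10.3% of all genes). They were LRP2 (0.658 ± 0.0979 CPM in siControl, 5.91 ± 0.405 CPM in siControl_2) and GPC4 (3.46 ± 1.09 and 9.79 ± 1.27 CPM). In DKO cells CDON fell with wtZFX, from 32.2 ± 0.667 to 26.8 ± 1.36 CPM.

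Between SMO and the GLI factors 35 of 36 listed genes were tested in LN-229, and with siZFX 5 rose and 9 fell (40% called, where 30.9% of all genes were). GPR161, a ciliary receptor that restrains the pathway, stood at 33.3 ± 1.82 CPM in siControl and fell to 18.01 ± 0.860 CPM, a log2 change of -0.89 (SE 0.10, adjusted p = 1.7e-07). IQCE, which anchors the EVC complex near SMO, fell from 46.1 ± 1.504 to 24.6 ± 2.54 CPM, and to 15.05 ± 2.76 CPM in the double knockdown from 48.1 ± 4.59 CPM in siControl_2. In DKO cells GPR161 rose 1.84-fold with wtZFX and 1.82-fold with ZFX12_13, and IQCE 1.93-fold and 2.01-fold. EVC, whose product binds SMO, rose from 17.5 ± 1.80 to 35.3 ± 3.31 CPM with wtZFX. IQCE also fell with siZNF593, to 24.4 ± 3.03 CPM (log2 change -0.92, SE 0.12, beside -0.91, SE 0.12, with siZFX). With siZNF593 MOSMO, which lowers SMO at the cell surface, fell from 75.5 ± 1.80 to 38.8 ± 1.97 CPM, and ARRB1, a beta-arrestin, from 10.3 ± 1.70 to 3.55 ± 0.951 CPM.

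Of 48 tested genes of the primary cilium 7 rose and 12 fell with siZFX (39.6% called, where 30.9% of all genes were). TCTN1 and TCTN2, of the transition zone at the base of the cilium, fell from 27.3 ± 0.586 to 10.04 ± 0.101 CPM and from 19.3 ± 0.455 to 7.92 ± 1.09 CPM. IFT57, an intraflagellar transport subunit, fell from 32.5 ± 1.59 to 12.1 ± 0.398 CPM, and in the double knockdown from 37.4 ± 1.66 to 13.9 ± 2.94 CPM. With siZNF593 13 rose and 5 fell (37.5% against 26.8% of all genes), and KIF3B, a motor of ciliary transport, fell from 121 ± 6.13 to 54.6 ± 4.49 CPM. In DKO cells 14 of 49 rose and 22 fell with wtZFX (73.5% against 42.3% of all genes). KIAA0586 fell there from 66.9 ± 0.834 to 42.6 ± 2.18 CPM, and CC2D2A from 34.5 ± 0.976 to 22.4 ± 1.57 CPM. With ZFX12_13 9 rose and 19 fell (57.1% against 36.6% of all genes). RAB34, a GTPase of cilium formation, rose 2.14-fold with ZFX12_13, and DYNC2H1 fell from 180 ± 2.72 to 121 ± 13.8 CPM.

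The list of genes known as targets of the pathway, in various tissues, had 5 rises and 13 falls of 29 tested genes with siZFX (62.1% called, where 30.9% of all genes were). It had 14 falls with siZNF593 (48.3% called, against 26.8%), and 3 rises and 17 falls in the double knockdown (69% against 38.2%). Between the control sets alone 5 were higher and 9 lower in siControl_2, which is again 48.3% called, against 10.3% of all genes. NKX2-2, a Hedgehog-induced factor of the neural tube, fell from 7.34 ± 0.588 to 1.23 ± 0.159 CPM with siZFX and from 12.1 ± 1.58 to 2.59 ± 1.70 CPM in the double knockdown. MYCN fell with siZNF593 from 8.19 ± 0.610 to 1.87 ± 0.666 CPM, and SFRP1, a secreted Wnt antagonist, from 90.1 ± 5.03 to 24.3 ± 1.67 CPM. With wtZFX 16 of 32 tested targets rose and 6 fell (68.8% against 42.3% of all genes), among them FOXL1 (3.76 ± 0.679 to 24.03 ± 1.05 CPM) and TBX2 (17.8 ± 1.12 to 51.2 ± 0.434 CPM), both of which rose. MYCN was higher in siControl_2 than in siControl (15.8 ± 1.67 against 8.19 ± 0.610 CPM).

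**Figure D5:**
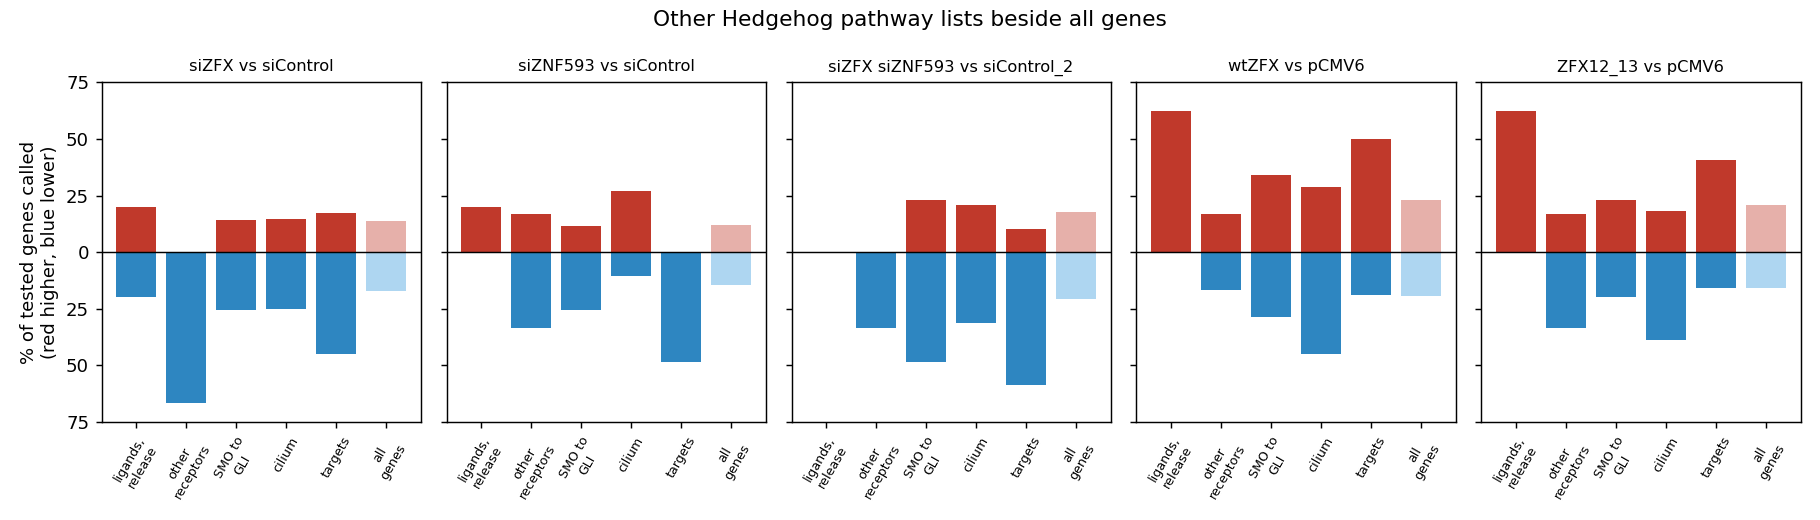
Share of tested genes called higher (red, above 0) and lower (blue, below 0) in 5 lists of other Hedgehog pathway genes and in all tested genes (pale bars), in 5 comparisons, in percent. Lists hold 5 to 49 tested genes. The ligand bars with wtZFX and ZFX12_13 include SHH and IHH, whose changes are a description without a test. With wtZFX 16 of 32 targets are higher, where 23.2% of all genes are.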

How the data were processed

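RNA-seq counts were deposited by the authors per gene and library, in 3 columns (unstranded and one for each strand), per the file headers' layout of STAR gene counts. The submitters' processing notes name STAR, HTSeq, DESeq2 and hg38, without versions. The unstranded counts were used, since reads fell evenly on both strands (50.1% to 50.7% on the first). All 58721 IDs matched GENCODE 29. Lines that name no gene were left out of totals: reads outside genes made up 4.60% to 11.1% of all reads, and reads on several genes 9.49% to 11.1%.

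Each line was fitted alone with edgeR 4.0.16 (robust quasi-likelihood, TMM, filterByExpr) in R 4.3.3, adjusted over all tested genes and called under 0.05. The SE of a log2 change is its size divided by the root of the F statistic. CPM use TMM-scaled totals, except those of ZNF593, which use the plain total of the summed stranded columns. The method was tested on simulated data. The 9 genes and the lists were chosen with earlier results of these data known. Up to 3 genes of a list were named per comparison, those called with the largest change at a mean of at least 1 CPM, and the 5 most like SMO. The text describes part of them. Alternatives were RLE factors, DESeq2 1.42.0, no filter, at least 1 CPM in 3 libraries, only the groups compared, a replicate block, summed stranded columns, siControl in place of siControl_2, and leaving out each library. Python 3.11.15 with matplotlib 3.10.9 drew the figures.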

Additional observations from a re-analysis of the deposited data

Results flagged for a closer look

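The change in HHIP and that in PTCH1 differed between the double knockdown (against siControl_2) and siZFX (against siControl), by the test of the difference itself in edgeR. For HHIP the difference was 1.93 on the log2 scale (adjusted p = 4.12e-06), and for PTCH1 it was 0.37 (adjusted p = 0.0318). HHIP was at 14.9 ± 1.09 CPM in siControl and 6.06 ± 1.78 CPM in siControl_2, and at 4.62 ± 0.408 CPM with siZFX and 7.22 ± 0.542 CPM in the double knockdown (SD, n = 3). PTCH1 was at 105 ± 0.949 and 120 ± 8.46 CPM in the control sets, and at 58.5 ± 2.08 and 86.0 ± 11.6 CPM in the knockdowns. ZFX was left at 31.7% of its control with siZFX and 49.8% in the double knockdown, and the part of that in either difference was not tested.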

How the results depend on the processing

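Of 27 changes of single Hedgehog genes that passed the test, 21 passed it under every alternative tried. The exceptions were BOC and PTCH1 with siZNF593, PTCH1 in the difference between both knockdowns that held siZFX, HHIP with wtZFX, and BOC and PTCH1 with ZFX12_13. SMO was tested in the double knockdown only, so counts of Hedgehog genes called are of 9 genes there and of 8 in the other comparisons. The count was 7 with siZFX where only the compared groups were fitted. With siZNF593 it was 4 with DESeq2, 1 with stranded columns summed and 5 with only the compared groups. Between the control sets it was 2 with no filter and 4 with only the compared groups, and for the double knockdown's change minus that of siZFX 4 with DESeq2, no filter or siControl as control. With ZFX12_13 it was 2 with DESeq2 and 2 with only the compared groups. The count of other pathway genes was 38 between the control sets with only the compared groups, and 59 for the difference between the knockdowns with siControl as control. The cause was not tested.

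With each library left out in turn the count of Hedgehog genes called ran from 4 to 5 for siZFX, 1 to 3 for siZNF593, 5 to 5 for the double knockdown, 1 to 1 between the control sets, 3 to 3 between the single knockdowns, 1 to 4 for the difference between the knockdowns, 3 to 4 for wtZFX, 2 to 4 for ZFX12_13 and 2 to 2 between the constructs. For the other pathway genes, in the same order, it ran from 46 to 48, 41 to 46, 58 to 75, 13 to 19, 53 to 58, 22 to 40, 71 to 76, 61 to 73 and 21 to 35.

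Single values that changed sign were not called in the fit reported. On the log2 scale, with a library left out, SUFU with siZFX ran from -0.110 to 0.054, GLI3 with siZNF593 from -0.063 to 0.058, GLI1 in the double knockdown from -0.059 to 0.334, GLI1 between the control sets from -0.056 to 0.258, BOC between the control sets from -0.018 to 0.143 and GAS1 between the single knockdowns from -0.131 to 0.087. For the difference between the knockdowns BOC ran from -0.146 to 0.141, and was 0.26 with stranded columns summed and 0.041 with siControl as control. GLI1 with ZFX12_13 ran from -0.066 to 0.200, and between the constructs PTCH1 ran from -0.194 to 0.0090, GLI3 from -0.212 to 0.063 and SUFU from -0.060 to 0.030. HHIP in the double knockdown was -1.04 with siControl as control.

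Replicate numbers did not pair the samples: correlations of deviations ran from -0.26 to 0.26 between same-numbered libraries. With a replicate block the counts of Hedgehog genes called were 4, 2, 5, 1, 3, 2, 4, 4 and 2 in the order above, as without it, and the counts of other pathway genes were 56, 50, 69, 21, 58, 30, 82, 67 and 27.

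Depth limits BOC in LN-229 (31 to 114 counts a library) and GLI1 and HHIP in DKO cells (38 to 85 counts a library).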
